A study of Homo sapiens with 6 samples.

Results

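Replication-dependent histone genes make the histones that package newly copied DNA, and 69 of them, of 26531 genes in all, were measured in U2OS 2-6-3 cells. They were taken by symbol, as the H1-1 to H1-6, H2AC, H2BC, H3C and H4C genes (older names HIST1 to HIST4) with a protein-coding transcript entry on a primary chromosome in the tables. They comprised 6 H1 linker histone genes, 17 H2A, 18 H2B, 13 H3 and 15 H4 genes. By position in hg38, 34 lay in a large cluster at chr6:25726063-26285499, 5 at chr6:27132316-27147562 and 16 at chr6:27807479-27893891. On chromosome 1, 11 lay at chr1:149782689-149887916 and 2 at chr1:228457364-228458558, and H4C16 lay alone at chr12:14770720-14771131. Symbols were matched by accession only, so membership used no measured value.

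RNA sequencing covered 3 groups of 2 libraries from this established human osteosarcoma line. Sample cells had been transfected with plasmids for a light-controlled activator (CIBN-TetR with PHR-YFP-VP16) and for mCherry-MCP, a protein that binds MS2 RNA loops. Mock cells had received plasmids for TetR-RFP and YFP, and untransfected cells none. Every group, the untransfected one included, was kept under white light overnight, so the values cannot show an effect of light. U2OS 2-6-3 is a single clone. Transfection can reach only part of a culture, so each sample or mock library may average cells that did and did not take up plasmid. The labels do not give the cell cycle stage of the cultures. Whether the 2 libraries of a group came from separate cultures is not in the labels. The p-values below therefore rest on the spread between libraries, which may be technical.

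Replication-dependent histone genes supply the H1 linker histone and the H2A, H2B, H3 and H4 core histones that wrap DNA into nucleosomes, and their mRNA rises in S phase when DNA is copied. The mRNAs end in a conserved stem loop in place of a poly(A) tail. The stem-loop binding protein SLBP and the U7 small nuclear RNP, whose parts include LSM10, LSM11 and ZNF473, guide the cut that forms this end. NPAT and its partner CASP8AP2 sit with the gene clusters in the histone locus body and serve transcription. Some of the genes also give longer, polyadenylated transcripts, so the method by which RNA was captured bears on what is counted. Total RNA was the labelled input of a directional kit, and the labels name neither poly(A) selection nor rRNA removal. In bulk libraries fewer cells in S phase and less histone RNA per cell cannot be told apart.

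The stem loop is shown because it is the feature that sets these mRNAs apart from others. Below are 7 of the loops, chosen to cover each form found and genes that fell as well as 1 that was not called, from the sense strand of GENCODE 29 transcripts with T for U. Capitals mark the match to GGNNCTTTTCAGNNCC, and 5 transcript bases stand on either side.
H4C2: ccaatGGCCCTTTTCAGGGCCgccca
H4C8: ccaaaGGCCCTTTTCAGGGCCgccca
H4C16: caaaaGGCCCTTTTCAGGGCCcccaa
H3C10: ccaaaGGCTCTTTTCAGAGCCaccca
H2BC13: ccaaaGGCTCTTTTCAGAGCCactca
H2AC13: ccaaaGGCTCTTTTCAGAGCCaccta
H2AC11: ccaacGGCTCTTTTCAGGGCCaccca
All 69 members had a GENCODE transcript, but only 34 of these ran at least 40 bases past the stop codon, and 22 of the 34 held the motif. Among 19633 other protein-coding genes 7 held it, or 0.0357%. The form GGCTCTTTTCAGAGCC occurred in 16 members, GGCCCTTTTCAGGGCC in 5 and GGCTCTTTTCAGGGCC in 1, H2AC11, whose stem is not a perfect inverted repeat. No match elsewhere says only that these letters are not in the annotated transcript.

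Promoters of 4 members are shown, those of H1-1 and H4C9, which fell most among the well-read members in the authors' deposited tables, and those of H2BC12 and H4C16, a pair of well-read members called in no comparison. Each is the RefSeq window of GRCh38.p14 from 250 bases before to 50 after the gene start, in the direction of transcription. Capitals mark 4 motifs on either strand. They are the octamer ATTTGCAT, the CCAAT box, the TATA box spelled TATAAA, and the shorter TATAA, which lies inside TATAAA and so counts those matches too. Coordinates are chr6:26017738-26018037 on the minus strand for H1-1, chr6:27139032-27139331 on the plus strand for H4C9, chr6:27146809-27147108 on the minus strand for H2BC12 and chr12:14771082-14771381 on the minus strand for H4C16.
H1-1: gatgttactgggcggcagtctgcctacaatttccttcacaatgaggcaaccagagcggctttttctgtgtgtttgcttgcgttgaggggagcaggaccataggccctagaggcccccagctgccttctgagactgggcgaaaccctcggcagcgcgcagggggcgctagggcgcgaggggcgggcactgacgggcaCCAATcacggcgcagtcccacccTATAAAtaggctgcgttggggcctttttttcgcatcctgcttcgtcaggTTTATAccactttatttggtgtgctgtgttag
H4C9: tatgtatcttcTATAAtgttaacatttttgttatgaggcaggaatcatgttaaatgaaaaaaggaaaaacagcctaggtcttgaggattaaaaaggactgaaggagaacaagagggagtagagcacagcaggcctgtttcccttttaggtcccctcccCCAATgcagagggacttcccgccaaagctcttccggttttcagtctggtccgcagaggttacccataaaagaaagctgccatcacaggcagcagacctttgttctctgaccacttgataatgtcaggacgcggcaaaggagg
H2BC12: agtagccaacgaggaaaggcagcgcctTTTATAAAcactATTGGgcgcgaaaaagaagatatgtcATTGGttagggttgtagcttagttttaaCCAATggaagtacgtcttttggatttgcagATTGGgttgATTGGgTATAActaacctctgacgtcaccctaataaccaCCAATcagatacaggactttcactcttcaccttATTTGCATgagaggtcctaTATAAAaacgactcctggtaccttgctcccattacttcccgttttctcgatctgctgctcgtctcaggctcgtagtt
H4C16: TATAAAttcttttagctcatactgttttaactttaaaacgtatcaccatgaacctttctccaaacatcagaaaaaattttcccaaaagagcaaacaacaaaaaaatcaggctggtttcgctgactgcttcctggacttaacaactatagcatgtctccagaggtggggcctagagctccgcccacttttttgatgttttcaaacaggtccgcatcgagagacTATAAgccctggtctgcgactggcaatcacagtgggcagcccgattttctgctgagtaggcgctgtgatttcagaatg
A promoter window was in the RefSeq table for 64 members. ATTTGCAT was in 40.6% of them, against 1.77% of all 35116 windows of the same length, with 77.8% in H2B, 68.8% in H2A and 9.09% in H3 windows of the members and 0% in their H1 and H4 windows. CCAAT was in 84.4% against 34.6%, being in every H1, H2A, H2B and H3 window but in 23.1% of H4 windows. TATAAA was in 65.6% against 11.5%, and TATAA in 92.2% against 20.4%. The windows of members that were well read and of those that were hardly read held each motif in like shares, at 45.2% and 36.4% for ATTTGCAT, 83.9% and 84.8% for CCAAT, 71% and 60.6% for TATAAA, and 96.8% and 87.9% for TATAA. In the windows printed above, the octamer of H2BC12 began 46 bases before the gene start and its nearer TATAAA 27 bases before, the TATAAA of H1-1 began 31 bases before, the CCAAT of H4C9 92 bases before and the nearer TATAA of H4C16 28 bases before. A motif is a match of letters and was not tested for function.

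The libraries held 50105854 and 9579278 reads in sample cells, 54177551 and 44594507 in mock cells, and 53596406 and 51146190 in untransfected cells, summed over transcript entries. The deeper library of each group is called a and the shallower b, since replicate numbers could not be tied to the values. Of the osteoblast markers looked at, SPARC, COL1A1, RUNX2, ALPL and SPP1 were read in every library, whereas IBSP was listed at 0 in all and SP7 at 0.65 normalized reads or less. COL1A2, at 16.4 to 27.9 normalized reads, and BGLAP, at 16.5 to 40.6, were low in every library and not called. In the authors' deposited tables against untransfected cells RUNX2 fell, with log2 fold changes of -1.76 in sample cells and -2.49 in mock cells, as did SPARC, with -0.60 in both, whereas ALPL rose, with 3.05 and 3.62. COL1A1 and SPP1 were called in mock cells only, at -0.51 and 0.57, with 0.29 and 0.24 in sample cells. The epithelial markers KRT8 and KRT18 were read at 5154 normalized reads or more, EPCAM at 46.4 to 190 and CDH1 at 37.1 to 63.1. Of these EPCAM fell, at -1.43 and -1.34, and KRT18 rose, at 0.84 and 0.90, in the same authors' deposited tables. Of the blood markers CD3E was at 0 in all and PTPRC at 3.91 to 13. HBB, a globin gene, had 103 and 61.8 normalized reads in sample cells, 11.3 and 3.71 in mock cells, and 1.95 and 4.28 in untransfected cells. In the authors' deposited tables HBB rose in sample cells by 3.14 against untransfected (adjusted p = 2.22e-10) and by 0.38 against mock cells (adjusted p = 0.0191). These changes stand beside those of the histone genes, and their part in the results below was not tested. COL1A1 had 6105 and 14774 normalized reads in the 2 sample libraries, so library b of that group stood apart for this gene, and its part in the results below was not tested.

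The members fell into well-read and hardly read genes. A mean of at least 50 normalized reads in the mock and untransfected libraries was reached by 34 members, with deposited means of 137 to 28644. The other 35 had means of at most 43.9, and 5 of them (H4C14, H3C14, H3C15, H4C15 and H4C6) had no read in any library. By class, 3 of 6 H1, 10 of 17 H2A, 9 of 18 H2B, 4 of 13 H3 and 8 of 15 H4 genes were well read. The share of a member's 50-base words that GENCODE also has in another gene had a median of 1.92% in the well-read members, 0% in the hardly read ones with reads and 100% in those with no read, and its rank correlation with the level was -0.04 over the 69 members of these same libraries. Among the well-read, every 50-base word of H3C4 and H4C12 is shared, as are 98.0% of those of H2AC7, 83.7% of those of H2AC14 and 74.1% of those of H2BC12. The counts of these genes are uncertain to the extent that reads fit more than 1 gene. The entries of H3C4 and H2AC7 also overlap in position, so the same reads can count for both.

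Per length, the most abundant in untransfected cells were H2AC11 with 43952 normalized reads per kb of entry, H3C2 with 41614, H2BC11 with 34204, H1-2 with 34089 and H2AC12 with 34073. The least abundant of the 30 well-read members with such a value was H4C12 with 304. H2BC5, H2BC12, H2BC18, H2BC21 and H3C4 have entries that span 1000 bases or more and were left out of this scale. On this scale the top 5 held a linker histone, an H3 gene and both pair partners of the H2A and H2B genes H2AC11 and H2BC11. The 8 well-read H4 genes ran from 304 to 25159 per kb, with H4C2 the highest. Over the 30 members the rank correlation between this level and the log2 fold change in the authors' deposited table was 0.33 for sample cells and 0.35 for mock cells, a description over genes that share the same libraries.

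**Figure D1:**
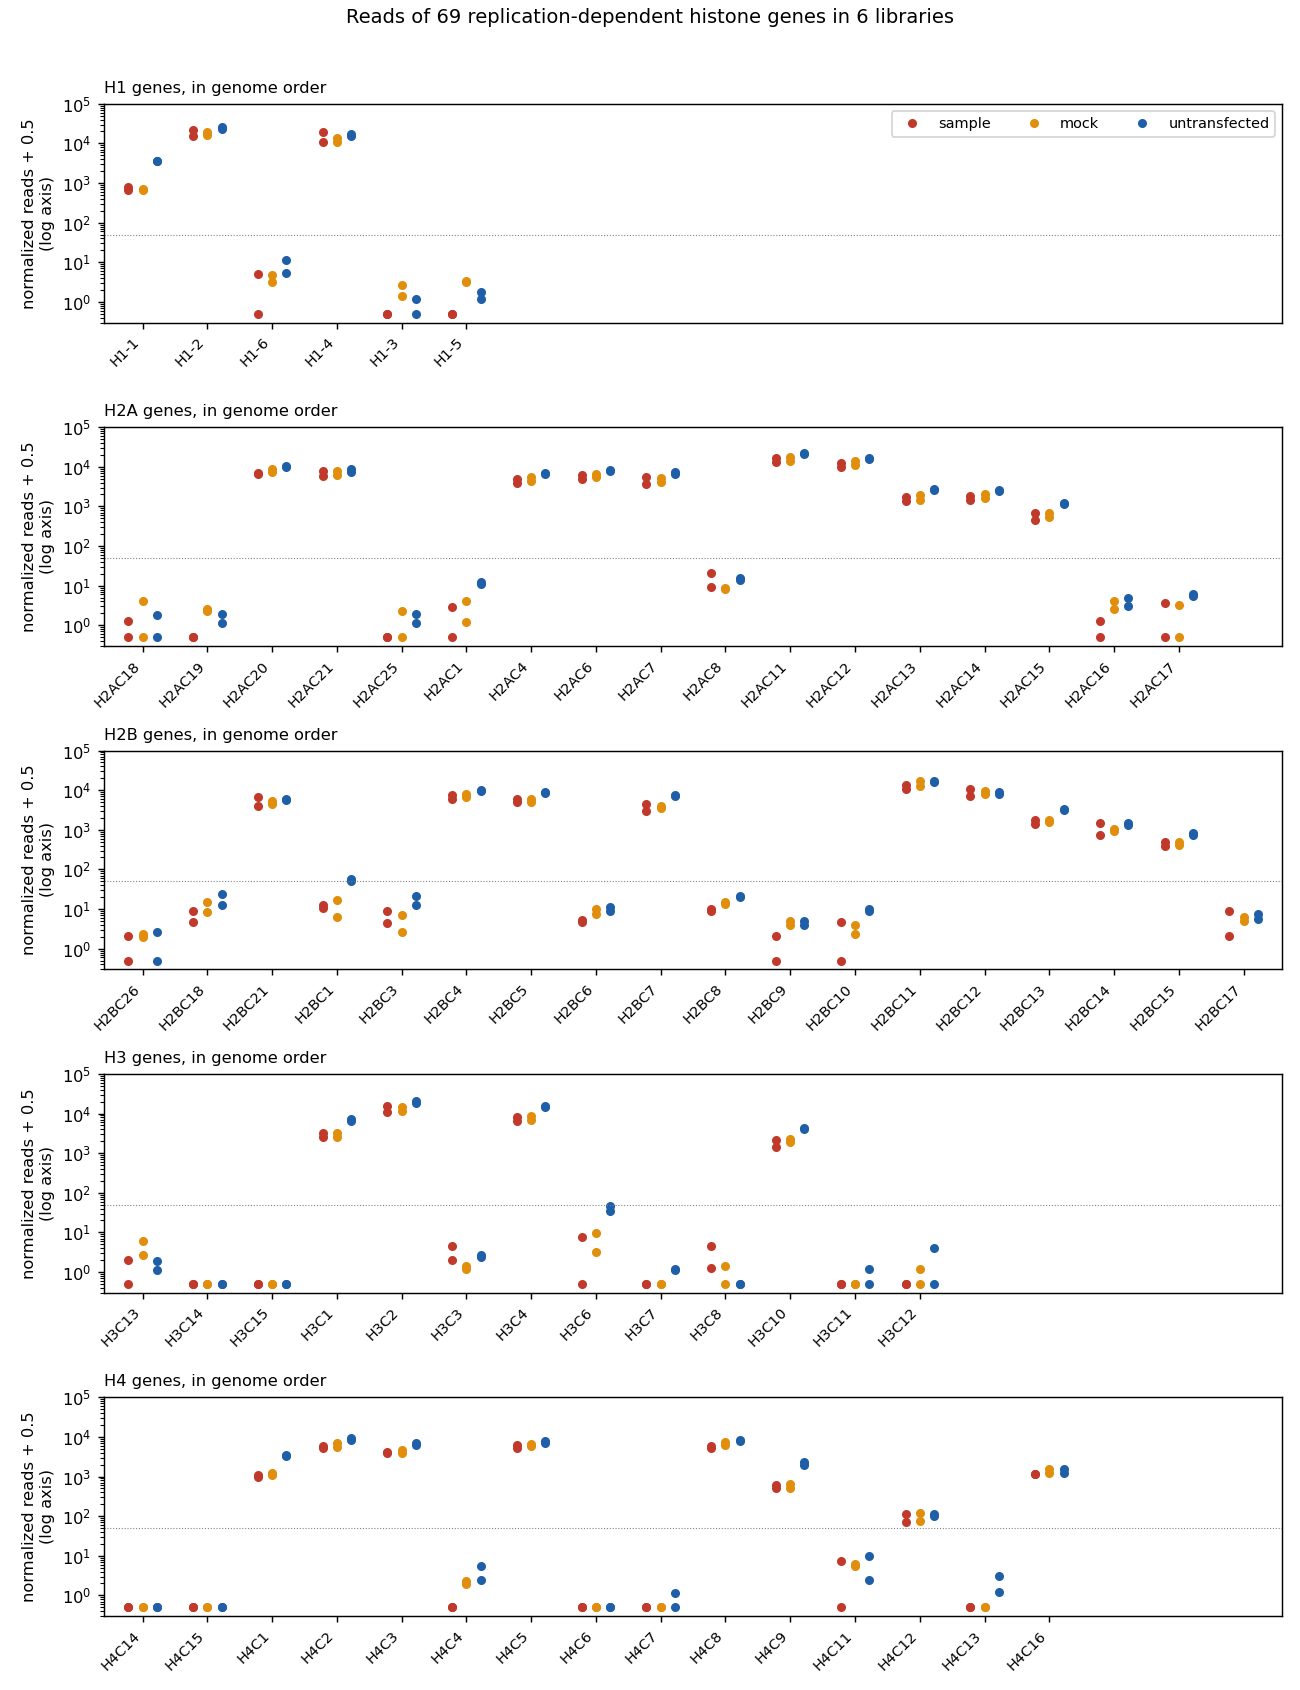
Normalized reads plus 0.5 on a log axis for all 69 members, 1 panel per histone class in genome order, with a point for each library; sample is left of mock, and mock left of untransfected, in each gene. The dotted line is at 50 reads, and the genes divide into 34 above it and 35 below or near it.

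The first question was how transfection with the light-controlled plasmids or the mock plasmids went with histone mRNA. The sum of normalized reads over all 69 members was 161032 and 212902 in sample cells, 174986 and 214606 in mock cells, and 264237 and 288316 in untransfected cells. Every transfected library lay below both untransfected libraries, while sample and mock overlapped. In ratio of means this gave 0.677 for sample over untransfected and 0.705 for mock over untransfected, and 0.96 for sample over mock. The last ratio changes sides when 1 library is left out, its log2 being 0.13 without sample library a and 0.10 without mock library b, against -0.06 with all. With 2 libraries a group the smallest two-sided p of an exact permutation test is 0.333, so sums were not tested. Of the classes H3 stood lowest, at 0.546 of the untransfected sum in sample cells and 0.561 in mock cells. The H3C4 entry spans that of H2AC7 and was summed in full. Reads of H2AC7 can thus enter both the H3 and the H2A sum, and the sum of all members more than once. The H4 sum stood at 0.624 and 0.702, and the H2A sum stood at 0.683 and 0.746, H2B at 0.743 and 0.772, and H1 at 0.751 and 0.686. The hardly read members summed to 79.8 and 78.2 in sample cells, 92.2 and 123 in mock cells, and 231 and 254 in untransfected cells, again without overlap between transfected and untransfected libraries.

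At an adjusted p under 0.05 in the authors' deposited table, 29 members fell and 0 rose in sample against untransfected cells out of 41 tested, where 17.1% of all 15439 tested genes fell and 20.3% rose (37.4% in either direction). The median log2 fold change of the tested members was -0.61, against -0.00 over all tested genes. In mock against untransfected cells 28 of 50 tested members fell and 0 rose, beside 23.4% lower and 27.6% higher (51% in either direction) among 16939 tested genes, with medians of -0.47 in members and -0.00 overall. The 2 comparisons share the untransfected libraries, so their values are given side by side and their likeness is no further evidence. With limma-voom on the recovered counts, 31 of 39 members passed lower in sample cells, against 24.5% of all tested genes, and 27 of 39 in mock cells, against 28.7%. Of the members called in the authors' deposited mock table, H2BC21, H4C8 and H2BC14 missed the limma-voom threshold with all 6 libraries kept. With mock library a left out, H2AC20, H3C2, H1-2, H2BC4, H2AC6, H2AC7, H4C5 and H2AC11 missed it as well. That fit rests on a lone mock library. Leaving out sample or untransfected libraries left between 26 and 33 calls in the sample comparison. Among the 34 well-read members, all transfected libraries were below both untransfected libraries in 28 in sample cells and in 29 in mock cells, where 36% and 38.8% of all genes with such a mean were.

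**Figure D2:**
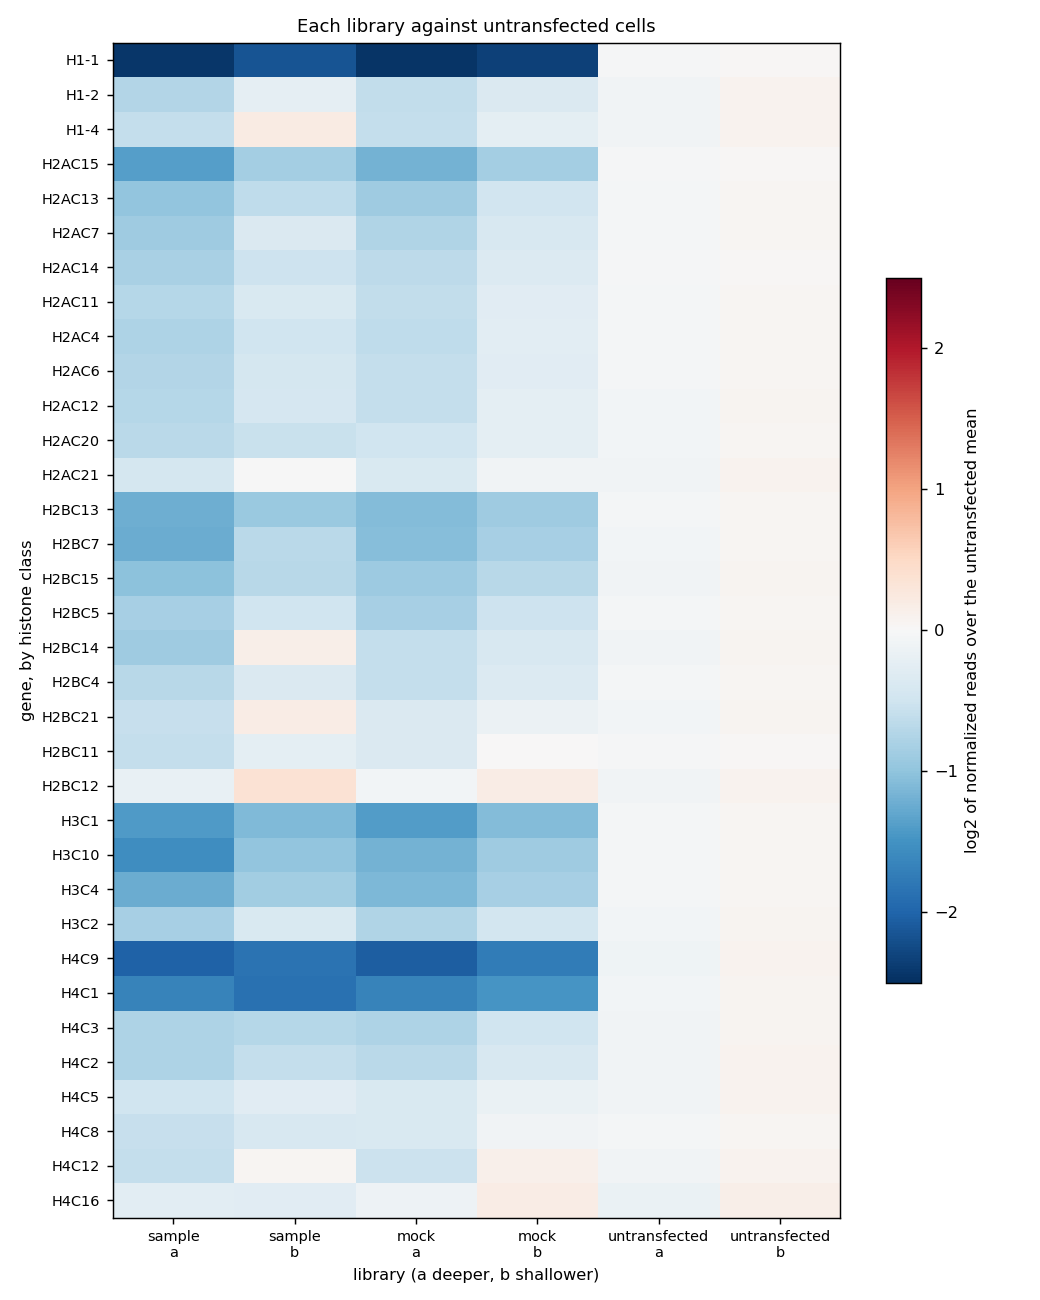
Each of the 34 well-read members, grouped by histone class, in each library as log2 of normalized reads over the untransfected mean, from blue (lower) through white to red (higher); sample, mock and untransfected run left to right. The transfected columns are blue in nearly all rows, with H1-1, H4C9 and H4C1 deepest, and H2BC12 and H4C16 pale.

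Among the H1 linker histones, which seal DNA at the nucleosome, H1-1 (chr6:26017032-26017812) fell most of all well-read members. H1-1 had 665 and 807 normalized reads in sample cells, 657 and 718 in mock cells, and 3515 and 3704 in untransfected cells. Transfected and untransfected libraries were far apart. H1-1 had a log2 fold change of -2.28 (SE 0.14, adjusted p = 3.89e-59) in the authors' deposited table for sample cells and of -2.36 (SE 0.09, adjusted p = 9.26e-150) in that for mock cells, both against untransfected cells. H1-2, the most read member per library, had 14959 and 21448 reads in sample cells, 16320 and 19309 in mock cells, and 23528 and 26378 in untransfected cells. It fell by 0.45 on the log2 scale in sample cells and by 0.47 in mock cells in the authors' deposited tables, a small part of the H1-1 change. H1-4 was not called in either. It had 10792 and 18858 normalized reads in sample cells, 10879 and 13768 in mock cells, and 15341 and 17461 in untransfected cells, so sample library b lay above both untransfected libraries. The authors' deposited log2 fold changes of H1-4 were -0.13 (SE 0.35, adjusted p = 0.815) in the sample table and -0.38 (SE 0.19, adjusted p = 0.0786) in the mock table. The other 3, H1-6, H1-3 and H1-5, had at most 11 normalized reads in any library.

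H2A and H2B form the dimers that flank the H3 to H4 core, and many of their genes are arranged in head-to-head pairs. Of the 10 well-read H2A genes 9 fell in sample cells and 7 in mock cells, and of the 9 well-read H2B genes 6 and 7 fell. Among the well-read H2A genes H2AC15 fell most. It had 466 and 667 normalized reads in sample cells, 533 and 670 in mock cells, and 1171 and 1234 in untransfected cells, so no transfected library reached the untransfected ones. The authors' deposited log2 fold changes of H2AC15 were -1.09 (SE 0.19) in sample and -0.97 (SE 0.12) in mock cells. H2AC13, in the same 16-gene group of chromosome 6, followed at -0.80 and -0.64 in the authors' deposited tables, and H2AC14 beside it stood at -0.66 and -0.47. H2AC20, on chromosome 1, had 6392 and 6987 reads in sample cells, 7260 and 8652 in mock cells, and 9788 and 10627 in untransfected cells, and its values in the authors' deposited tables were -0.61 and -0.34. H2AC11, the most abundant per length, had 13304 and 16783 in sample cells, 14301 and 18007 in mock cells, and 21094 and 22682 in untransfected cells. No transfected library of H2AC11 reached an untransfected one, and its log2 fold changes in the authors' deposited tables were -0.54 (adjusted p = 0.000131) in sample cells and -0.41 (adjusted p = 0.034) in mock cells. H2AC4 and H2AC12 passed only in sample cells in the authors' deposited tables, at -0.62 and -0.56, with -0.40 (adjusted p = 0.0586) and -0.38 (adjusted p = 0.0705) in mock cells, where limma-voom called both (adjusted p = 0.0109 and 0.0176), and neither was called in sample against mock cells. H2AC21 passed in neither, at -0.21 and -0.20 in the authors' deposited tables.

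H2BC13 fell most among the well-read H2B genes. H2BC13 had 1414 and 1725 normalized reads in sample cells, 1553 and 1771 in mock cells, and 3174 and 3385 in untransfected cells, without overlap. Its log2 fold changes in the authors' deposited tables were -1.06 (SE 0.13, adjusted p = 7.77e-14) and -0.96 (SE 0.09, adjusted p = 3.04e-25). H2BC7 had 3065 and 4583 in sample cells, 3492 and 4098 in mock cells, and 6986 and 7577 in untransfected cells, and it fell by 0.91 and 0.92 on the log2 scale in the authors' deposited tables. H2BC15 and H2BC5 fell by 0.85 and 0.65 in sample cells and by 0.77 and 0.64 in mock cells, again in the authors' deposited tables.

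H2BC12 (chr6:27138293-27146858) was called in neither comparison. It had 7307 and 10710 normalized reads in sample cells, 7988 and 9441 in mock cells, and 7835 and 8855 in untransfected cells. The groups overlapped, and the authors' deposited log2 fold changes were 0.10 (SE 0.16, adjusted p = 0.677) and 0.08 (SE 0.09, adjusted p = 0.485). These reads are those of the longer of its 2 entries, which also spans H4C9 on the opposite strand, and the labels do not say whether counting used strand. Reads of the longer entry beyond those of the shorter one were 1443 and 1948 in sample cells, 1660 and 1786 in mock cells, and 818 and 941 in untransfected cells, in normalized reads. In untransfected cells H4C9 itself had more reads than this remainder, so the remainder does not hold all reads of H4C9. The shorter entry had 5864 and 8762 in sample cells, 6328 and 7655 in mock cells, and 7017 and 7914 in untransfected cells. So the part outside the shorter entry was higher in every transfected library, and the shorter entry overlapped between groups; neither was tested. H2BC14 and H2BC21 passed only in mock cells in the authors' deposited tables, at -0.46 and -0.23, with sample values of -0.23 (adjusted p = 0.698) and -0.13 (adjusted p = 0.8). By limma-voom H2BC14 passed in sample cells instead, at -0.60 (adjusted p = 0.0456), and missed in mock cells (adjusted p = 0.0571). Sample library b carried more H2BC14 (742 and 1511 reads in sample cells) and more H2BC21 (3941 and 6683) than library a. H2BC11 passed only in sample cells, at -0.41 against -0.14 in mock cells in the authors' deposited tables.

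H3 genes encode the histone that carries many of the known tail marks, and all 4 well-read H3 genes fell in both comparisons. H3C1 (chr6:26020490-26020958) had 2558 and 3179 normalized reads in sample cells, 2592 and 3223 in mock cells, and 6566 and 7072 in untransfected cells, a gap far wider than either pair. Its log2 fold changes were -1.24 (SE 0.13, adjusted p = 5.01e-20) and -1.20 (SE 0.10, adjusted p = 9.34e-35) in the authors' deposited tables. H3C10, whose loop is printed above, had 1447 and 2137 in sample cells, 1866 and 2293 in mock cells, and 4067 and 4379 in untransfected cells, and fell by 1.22 and 1.00 on the log2 scale in the authors' deposited tables. H3C2, the most read H3 gene, had 11035 and 15099 in sample cells, 11691 and 14307 in mock cells, and 18797 and 20486 in untransfected cells, and it fell by 0.58 and 0.57 in the authors' deposited tables. H3C4 fell by 1.03 and 0.95 in the authors' deposited tables, but its entry overlaps that of H2AC7. Taking the H2AC7 reads away left 2719 and 2936 in sample cells, 2901 and 3317 in mock cells, and 8079 and 8627 in untransfected cells. This assumes that every H2AC7 read was also counted in the H3C4 entry, which was not checked. The remainder was lower in every transfected library, with no test run on it.

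H4 is the partner of H3 in the nucleosome core, and of its 8 well-read genes 6 fell in sample cells and 6 in mock cells. H4C9 (chr6:27139309-27139678) had 523 and 593 normalized reads in sample cells, 509 and 633 in mock cells, and 1989 and 2286 in untransfected cells. It stood at a log2 fold change of -1.91 (SE 0.15, adjusted p = 1.88e-34) for sample cells and -1.87 (SE 0.12, adjusted p = 1.43e-55) for mock cells in the authors' deposited tables, next to H1-1 among well-read members. H4C1 (chr6:26021679-26022050) had 1079 and 947 in sample cells, 1074 and 1232 in mock cells, and 3297 and 3583 in untransfected cells. H4C1 fell by 1.72 and 1.55 on the log2 scale in the authors' deposited tables. The next H4 genes fell less. H4C3, H4C2, H4C8 and H4C5 fell by 0.73, 0.68, 0.49 and 0.39 in sample cells and by 0.61, 0.51, 0.21 and 0.25 in mock cells in the authors' deposited tables. H4C16, the member on chromosome 12, had 1138 and 1128 in sample cells, 1254 and 1551 in mock cells, and 1218 and 1512 in untransfected cells, so both sample libraries lay below the others while mock and untransfected overlapped, and it was not called. The values of H4C16 in the authors' deposited tables were -0.26 (adjusted p = 0.185) and 0.06 (adjusted p = 0.744). H4C12 was also not called, at -0.27 and -0.14 in the authors' deposited tables.

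**Figure D3:**
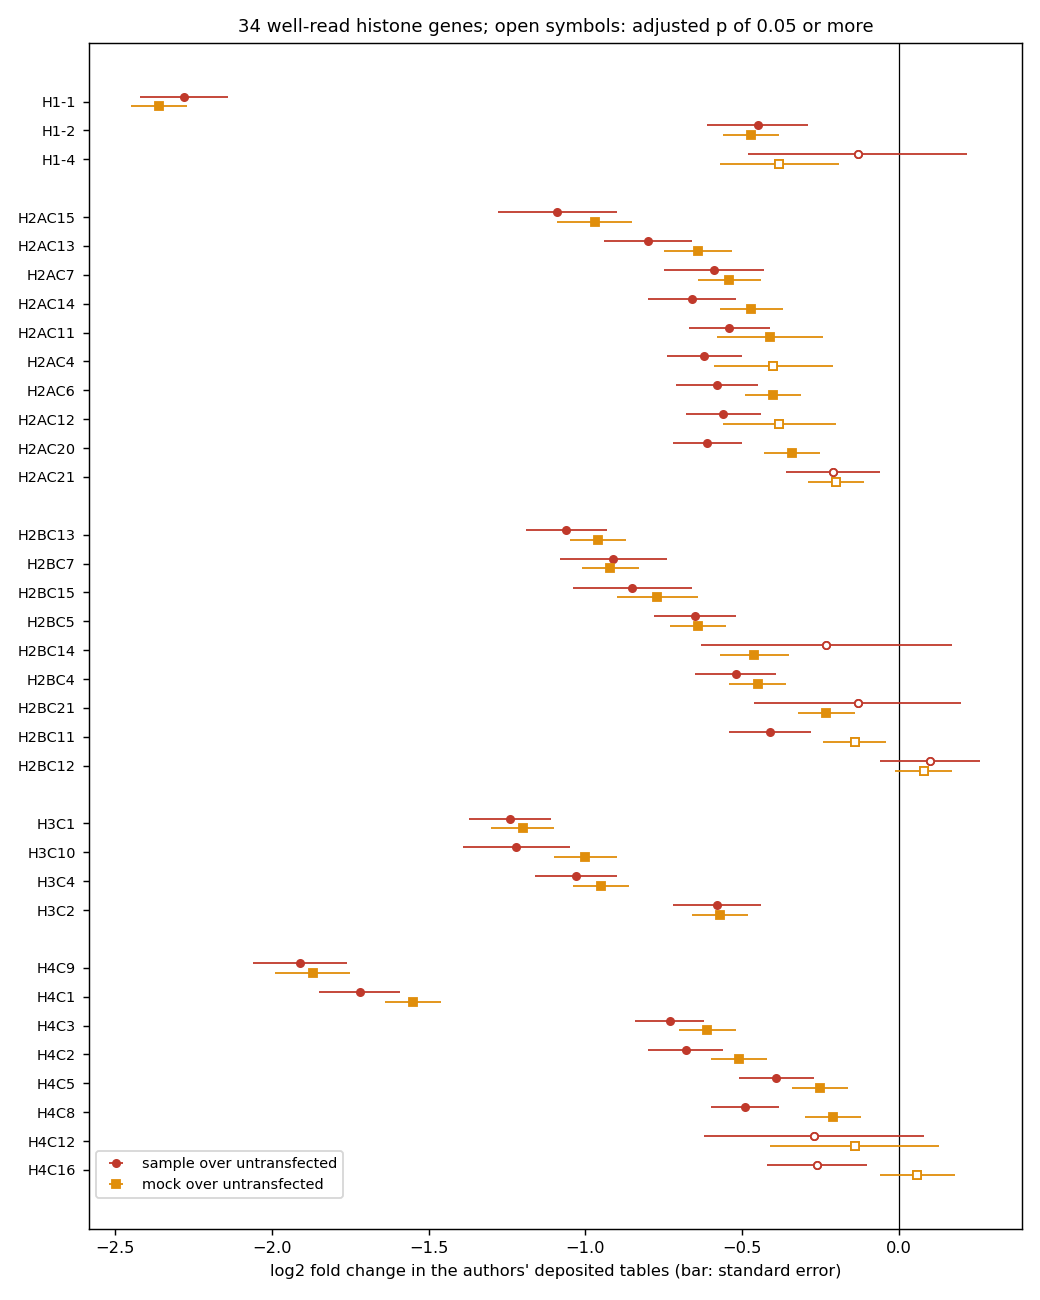
Log2 fold change over untransfected cells of the 34 well-read members in the authors' deposited tables, with standard errors as bars; circles are sample cells, squares mock cells, and open symbols have an adjusted p of 0.05 or more. The filled points all lie below 0, and H1-1, H4C9 and H4C1 lie furthest left.

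Of the hardly read members 2 passed in both comparisons. H2BC1, a testis-linked H2B gene, had 10.2 and 12.4 normalized reads in sample cells, 5.67 and 16.7 in mock cells, and 57.2 and 52 in untransfected cells. Its log2 fold changes were -1.56 and -1.84 in the authors' deposited tables. H3C6 had 7.04 and 0 in sample cells, 9.22 and 2.78 in mock cells, and 33.8 and 46.3 in untransfected cells, and stood at -1.57 and -1.95 in the authors' deposited tables. Both rest on few reads, and a hardly read gene could enter the test through its untransfected libraries alone, so these 2 carry no weight for the other hardly read members.

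Position and pairing were next looked at across members. Of the 17 well-read members in the large cluster of chromosome 6, 16 fell in sample cells and 15 in mock cells. Of the 5 in its 5-gene group 4 and 2 did, and of the 8 in its 16-gene group 6 and 7 did. Of the 3 in the 11-gene group of chromosome 1, 1 and 2 did. Among all tested genes 17.1% fell in sample cells and 23.4% in mock cells, and differences between positions were not tested. In 12 head-to-head H2A and H2B pairs the starts lay at most 347 bases apart, and both genes were well read in 8, at 224 to 323 bases. H2AC12 and H2BC12 start 224 bases apart, and their log2 fold changes were -0.56 and 0.10 in sample cells and -0.38 and 0.08 in mock cells in the authors' deposited tables. The H2BC12 values are those of its longer entry, which also spans H4C9. The log2 ratio of mean normalized reads over untransfected cells of its shorter entry was -0.03 in sample cells and -0.09 in mock cells. So the distance within this pair depends on the entry used. H2AC7 and H2BC7 differed the other way, at -0.59 and -0.91 in sample cells and -0.54 and -0.92 in mock cells in the authors' deposited tables. H2AC6 and H2BC4 lay together, at -0.58 and -0.52 in sample cells and -0.40 and -0.45 in mock cells in the authors' deposited tables. The H2A gene had the lower value in 6 of the 8 pairs in sample cells and in 5 of 8 in mock cells, and the differences within pairs were not tested.

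**Figure D4:**
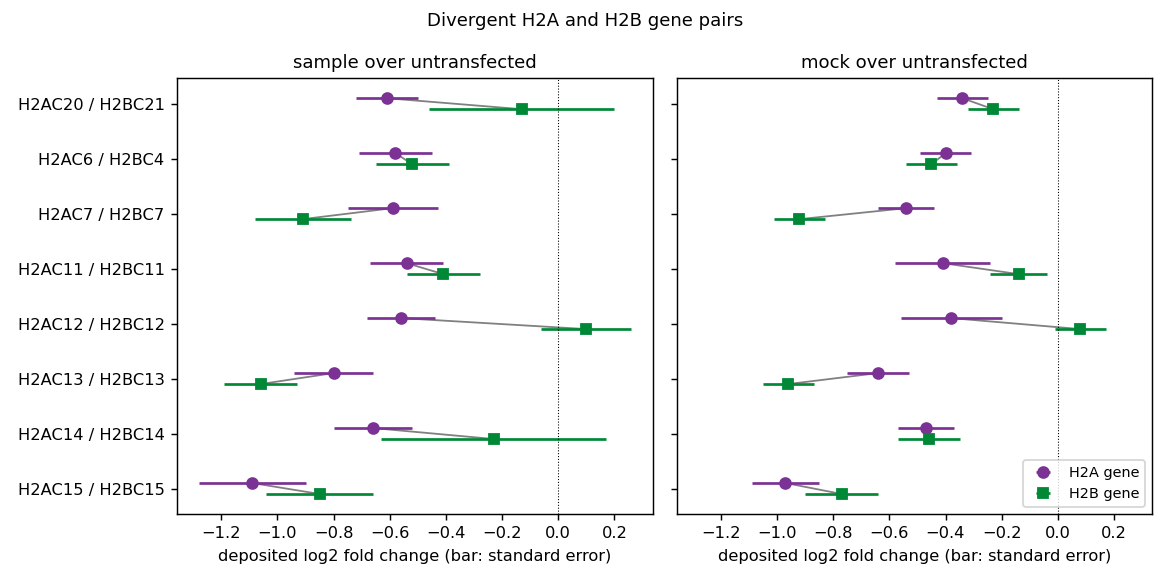
The 8 head-to-head pairs with both genes well read, with log2 fold change over untransfected cells in the authors' deposited tables and standard errors as bars, sample cells on the left and mock cells on the right. H2AC12 with H2BC12 is drawn furthest apart in both panels, with H2BC12 taken by its longer entry, which also spans H4C9.

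Sample against mock cells was the comparison that addresses the light-controlled plasmids apart from transfection, although the plasmid sets differ in more than the activator. No member was called, higher or lower, of 39 tested in the authors' deposited table, where 0.0659% of 15164 tested genes were (0.0594% lower and 0.00659% higher). Both sample libraries lay below both mock libraries in 3 of the 34 well-read members, against 19.4% of all genes with such a mean. Unadjusted p was under 0.05 for 0 members there and for 2, H2AC20 and H4C8, with limma-voom, which called 0 after adjustment. Log2 fold changes of the well-read members ran from -0.21 (H4C16) to 0.08 (H1-4) in the authors' deposited table, whose shrinkage pulls them toward 0. Unshrunken limma-voom values ranged from -0.34 for H3C10, with a 95% interval of -0.70 to 0.02, to 0.20 for H1-4, with an interval of -0.29 to 0.69. Without the deeper sample library a, which leaves the shallow library b alone, 3 members passed higher, H1-4 at 0.62 (adjusted p = 0.0111), H2BC14 at 0.64 (adjusted p = 0.0203) and H2BC21 at 0.44 (adjusted p = 0.0324), by limma-voom on the assumption that this lone library varies like the others.

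Library b carried more histone reads than library a in every group. The shallower library was higher in 32 of the 34 well-read members in sample cells, with a median ratio of 1.26, in 34 in mock cells, at 1.22, and in 34 in untransfected cells, at 1.09. Over all genes with a mean of at least 50 the ratios were 0.986, 1.01 and 1.01. The spread within each group was thus shared by the members, which are not independent of each other, and its part in the calls was not tested.

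The replication-independent histone variants, also made outside S phase, had 0 higher and 6 lower of 11 tested in sample cells in the authors' deposited tables. In mock cells they had 2 higher and 7 lower of 12. Among all tested genes 20.3% were higher and 17.1% lower in sample cells, and 27.6% and 23.4% in mock cells. MACROH2A2 was the lowest, at -1.03 and -1.43 in the authors' deposited tables, followed by H2AJ (-0.86 and -0.96) and the linker variant H1-10 (-0.79 and -0.81). H2AZ1, at -0.14 and -0.01, was not called, H2AX was called in mock cells only, at -0.14 and -0.24, and H3-3B, one of the genes for the H3.3 variant, was called higher in mock cells only, at 0.15 and 0.30, as was MACROH2A1, at 0.07 and 0.23, all in the authors' deposited tables. The entry kept for H3-3A had at most 21.3 normalized reads in a library and gave no call.

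Factors that transcribe histone genes or form and degrade their mRNA were taken as 1 list, and its calls were mainly higher. Of 27 in the authors' deposited tables, 13 rose and 1 fell in sample cells (20.3% and 17.1% of all tested genes), and 18 rose and 3 fell in mock cells (27.6% and 23.4%). Called higher in both were SNRPB, SNRPD3, SNRPF, NCBP1, NCBP2, SRRT, UPF1, SYMPK and CSTF2, which are not specific to histone mRNA. The other genes called higher in both were LSM10, SLBP, ERI1 and ZNF473. The counts are thus not those of histone-specific factors alone. LSM10, a U7 small nuclear RNP protein, rose by 1.12 and 0.86 on the log2 scale in the authors' deposited tables. Its normalized reads were 179 and 436 in sample cells, 209 and 238 in mock cells, and 133 and 110 in untransfected cells. Sample library b thus stood apart for LSM10, and limma-voom put its sample value at 0.85. CSTF2, a cleavage factor, rose by 0.70 and 0.81, and ERI1, a histone mRNA exonuclease, by 0.57 and 0.78, in the authors' deposited tables. SLBP rose by 0.32 in both of the authors' deposited tables. The transcription factors in the list were not mainly higher. NPAT stood at -0.00 and 0.02 and was not called, and CASP8AP2 fell by 0.73 and 0.56 in the authors' deposited tables. YY1 was called higher in mock cells only, at 0.08 and 0.19, and HINFP, at 0.24 and 0.34, was not called there. POU2F1, which binds the octamer, and CPSF3, the endonuclease of the cut, passed only in mock cells, each at -0.21, with -0.19 and -0.23 in sample cells in the authors' deposited tables.

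Histone chaperones had 3 higher and 3 lower of 20 in sample cells and 9 and 4 in mock cells in the authors' deposited tables, beside 20.3% higher and 17.1% lower of all tested genes in sample cells and 27.6% and 23.4% in mock cells. The counts in sample cells lie near those shares. IPO4, an importin for H3 and H4, rose by 1.14 and 1.19 and HIRA, a chaperone of H3.3, by 0.48 and 0.43, whereas ASF1B fell by 0.58 and 0.67, ATRX by 0.50 and 0.51, and NAP1L1 by 0.46 and 0.48, in the authors' deposited tables. DAXX rose by 0.34 in sample cells and NAP1L4 by 0.44 in mock cells, in the authors' deposited tables. NASP, at -0.33 and -0.09, and CHAF1A, at 0.02 and 0.10, were not called in them.

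Of 38 S phase and replication genes in the authors' deposited tables, 6 rose and 11 fell in sample cells, where 20.3% of all tested genes rose and 17.1% fell, and 8 rose and 14 fell in mock cells, where 27.6% and 23.4% did. The list had medians of -0.12 and -0.04 beside -0.60 and -0.47 for the well-read histone members. E2F2 fell by 1.52 and 1.66, MCM6 by 0.65 and 0.72, and E2F1 by 0.50 and 0.64, in the authors' deposited tables. CCNE1 rose by 0.68 and 0.74, GINS3 by 0.56 and 0.71, and RFC3 by 0.44 and 0.58 in the same authors' deposited tables. PCNA, the replication clamp, fell by 0.36 and 0.34, whereas RRM2 (-0.06 and -0.02) and CCNE2 (-0.21 and -0.15) were not called, in the authors' deposited tables. None of the 4 lists had a call in sample against mock cells.

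**Figure D5:**
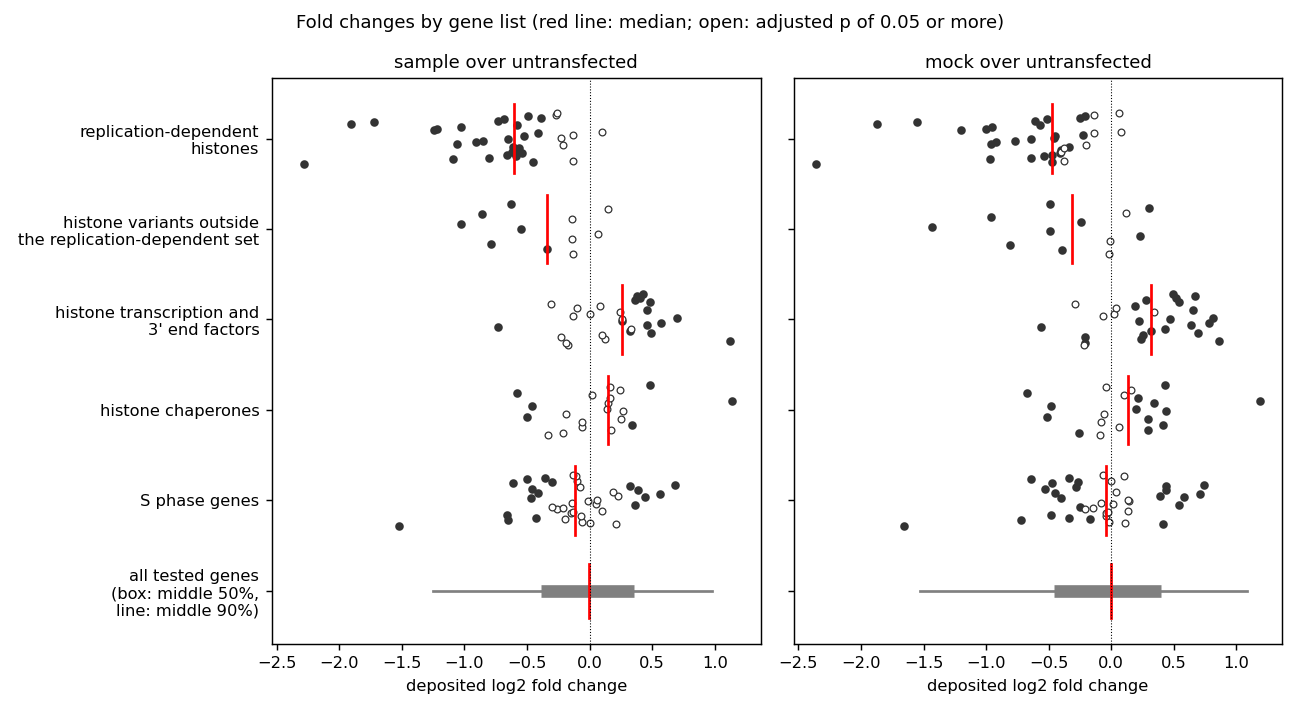
Log2 fold change over untransfected cells in the authors' deposited tables for the well-read histone members and 4 lists of genes around them, with sample cells on the left and mock cells on the right; red lines are medians, open points have an adjusted p of 0.05 or more, and the bottom bar shows all tested genes. Histone members centre at -0.60 and -0.47, and the factors of transcription and 3′ end formation at 0.26 and 0.32.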

How the data were processed

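Libraries were grouped by the transfection named in the labels. Bowtie, STAR, DESeq2 and hg38 appear in the submitters' processing notes, without versions or roles. The authors deposited 3 tables of 40029 transcript entries, 1 per comparison of 4 libraries. Per the file headers each gives a mean signal (normalized reads), a log2 fold change that the values show to be shrunk toward 0, its standard error, a Wald score and p-values as computed by the authors, raw and adjusted.

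Whole read counts of the 6 libraries were solved from the 3 deposited mean signals by lattice reduction (relative tolerance 1e-14). This succeeded for 30527 of 30527 entries with reads, and simulated entries came out exact in 29869 of 29869 cases. Normalized reads are these counts over size factors from all 6 libraries. RefSeq gave symbols for 39197 entries (97.9%), and the 832 others held 0.664% of reads. GENCODE 29 gave strand, older symbols and transcript sequences of the members. A gene was represented by its best-read entry. The main results are the authors' DESeq2 calls at an adjusted p under 0.05. With no deposited count columns edgeR was not run. As an alternative, limma-voom (limma 3.58.1 in R 4.3.3, Benjamini-Hochberg adjustment) was run on the recovered counts of all 6 libraries for genes with a mean of at least 10; its calls were also tested on simulated counts. Other work used Python 3.11.15 with numpy 2.4.6, pandas 2.3.3 and scipy 1.17.1, and figures matplotlib 3.10.9. Named genes are members with a mean of at least 50 or a call, up to 3 called genes each way per other list, and a set given whatever their result. A few list and marker genes are left out of the text. Members and lists were chosen with earlier results of these data known. Alternatives changed the threshold, filter, centring, test, library sizes, joining of entries and libraries kept.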

Additional observations from a re-analysis of the deposited data

How the results depend on the processing

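No called member changed direction under any alternative run. The count of members lower in sample against untransfected cells was 29, 28 at an adjusted p under 0.01, 31 with limma-voom and 26 to 33 with 1 library left out. In mock against untransfected cells it was 28, 24 at an adjusted p under 0.01, 34 under 0.1, 27 with limma-voom, and 17 (without mock library a) to 31 with 1 library left out. Of the 28, 17 were also called with every library left out in turn. Sample against mock cells gave 0 calls throughout except 3 without sample library a, so 0 to 3. By limma-voom H2BC21 (adjusted p = 0.254), H4C8 (0.0613) and H2BC14 (0.0571) missed the threshold in mock cells, the cause not being tested, while H2AC4 (0.0109) and H2AC12 (0.0176) passed there, and H2BC14 (0.0456) and H2BC8 (0.0469) passed in sample cells. The summed signal was -0.56 on the log2 scale in sample cells (-0.78 to -0.38 with 1 library left out), -0.50 in mock cells (-0.66 to -0.36) and -0.06 between them (-0.27 to 0.13). No paired analysis was possible because the recovered libraries carry no replicate number. Sample library b, at 9579278 reads, limits the precision of both comparisons with sample cells, and reads shared by near-identical members cannot be assigned.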
